A study of Mus musculus and Homo sapiens with 56 samples.

Results

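The replication-dependent histone genes supply the bulk histones of S phase. They were taken here as every row of the count table named Hist1h, Hist2h, Hist3h or Hist4h, which gave 70 of 52459 genes. By class these were 6 linker histone H1, 20 H2A, 19 H2B, 12 H3 and 13 H4 genes. By cluster there were 56 Hist1 genes (chromosome 13, mm10), 10 Hist2 genes (chromosome 3), 3 Hist3 genes (chromosome 11) and 1 Hist4 gene (Hist4h4, chromosome 6). Of the 70, 65 had a single exonic block, and 3 (Hist1h2al, Hist1h2aj and Hist3h2bb-ps) are pseudogenes in RefSeq.

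The compared cells were D395A mouse embryonic stem cells and their wild-type (WT) counterpart, both of line E14TG2a. D395A replaces a catalytic aspartate of METTL3, which deposits N6-methyladenosine (m6A) on messenger RNA. Both were untreated and grown on gelatin in N2B27 medium with knockout serum replacement, LIF and inhibitors of MEK and GSK3β. The labels do not say how the D395A line was made, whether it is 1 clone, or whether the 2 RNA-seq libraries per genotype came from separate cultures, so p-values measure the spread between libraries, which may be technical. RNA-seq totals were 12743677 and 18151353 counts in D395A and 13953069 and 19246342 in WT, from total RNA depleted of ribosomal RNA with a directional kit. The m6A peaks came from immunoprecipitated chromatin RNA, as 1 list per genotype. All 10 stem cell markers were detected, 8 of them called lower in D395A and 1 higher, and their summed level was 2157 and 2209 CPM in D395A, against 4269 and 4380 CPM in WT, where CPM scales each library's counts to a common size. Of all 17778 genes tested, 36.8% were called higher and 34.3% lower in D395A. Of 16 fibroblast genes 13 were tested, 5 higher and 5 lower (38.5% each), and S100a4 had no count in any library. The 5 higher ones, Dcn, Col5a2, Timp3, Twist1 and Fbn1, were between 1.65 and 18.8 CPM in D395A and between 0 and 7.73 CPM in WT, and Dcn had no count in WT. The list summed to between 1484 and 1690 CPM in D395A and between 2963 and 2968 CPM in WT, most of it Fn1, which stem cells also express. The part of other cells in the histone results was not tested.

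Replication-dependent histone messages are intronless and end in a conserved stem-loop instead of a poly(A) tail. Stem-loop binding protein (SLBP) carries them through processing and translation, the U7 particle directs their 3′ cleavage, and they are transcribed in S phase under NPAT and degraded when DNA synthesis stops. Their gene copies encode near-identical proteins, with H2A and H2B genes often in divergent pairs around a shared promoter. Depletion of ribosomal RNA keeps such messages, which poly(A) selection loses.

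Most histone genes were somewhat higher in D395A. Of the 68 tested, 41 were called higher and 4 lower in D395A (edgeR quasi-likelihood test, Benjamini-Hochberg adjusted p below 0.05), and 23 were not called. Across all 17778 genes tested, 71.1% were called in either direction, 36.8% higher and 34.3% lower. The members' median log2 fold change (D395A over WT) was 0.45, against 0.00 over all genes. In bulk libraries, a change in the share of S phase cells and a change in RNA per cell cannot be told apart. At least 2-fold, 2 members were higher (Hist1h2ao and Hist1h2ab) and 2 lower (Hist1h2ba and Hist1h2aa), where 20.0% and 11.9% of all genes tested passed that rule. Both D395A libraries lay above both WT libraries for 39 members and below for 4, against 43.1% and 42.0% of all genes tested. The remaining 2 members, Hist2h2aa1 and Hist2h3c1, had no count in any library. The annotation of Gm20634 covers 90.3% of Hist2h2aa1 and 100% of Hist2h3c1 on the same strand, so reads there may have had no single gene to be counted for, and their 0 counts set no upper limit on their RNA. Each has a copy, Hist2h2aa2 and Hist2h3c2, that took counts.

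The D395A libraries differed from each other. Summed over all 70 genes, histone RNA was 10819 and 8042 CPM in D395A replicates 1 and 2, against 7346 and 7009 CPM in WT. D395A replicate 1 was thus 1.51-fold and D395A replicate 2 1.12-fold the WT mean. Histone genes were higher in replicate 1 than in replicate 2 for 66 of 68 in D395A and 45 of 68 in WT, with median log2 ratios of 0.42 and 0.09. Over all genes tested the replicate 1 value was the higher for 50.9% in D395A and 50.4% in WT, and over the 1944 tested genes of at most 1000 exonic bases for 70.8% and 53.1%. Without D395A replicate 1 the members' median log2 fold change was 0.24, against 0.005 over all genes tested. Without D395A replicate 2 it was 0.64, against 0.012 over all genes tested. Hist1h2ao and Hist1h2ab, at least 2-fold higher with all libraries, fell below that size without D395A replicate 1 (log2 fold changes 0.94 and 0.78). Without WT replicate 1 they did so as well (0.96 and 0.90).

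**Figure D1:**
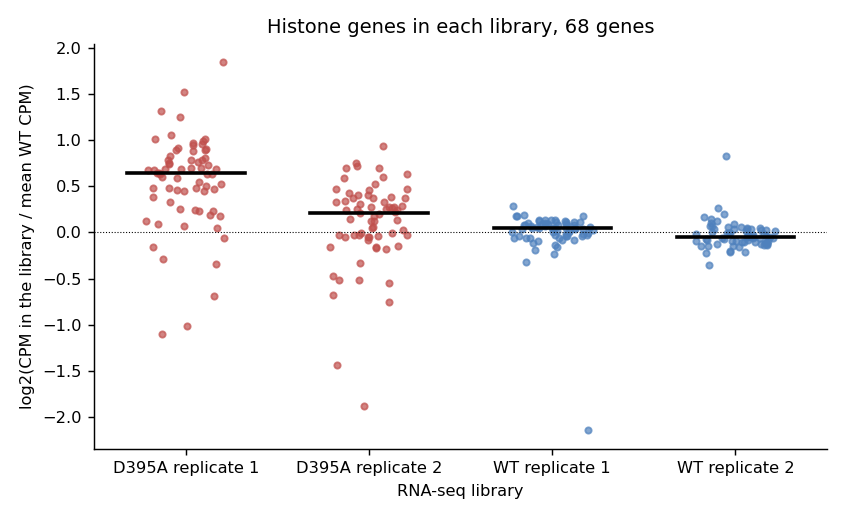
Level of each of the 68 tested histone genes in each library, as log2 of its CPM over its WT mean (vertical axis), with the median as a bar. D395A replicate 1 lies highest, D395A replicate 2 between it and the WT libraries, and the lone low point of WT replicate 1 is Hist1h2aj.

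Class sums are less open to how counted reads were shared among copies of a class, though reads that were not counted, or that came from overlapping genes outside the class, can still alter them. H2A summed to 1055 and 745 CPM in D395A, against 534 and 584 CPM in WT, a 1.61-fold ratio of means. H3 summed to 2701 and 1997 CPM in D395A, against 1693 and 1671 CPM in WT (1.40-fold). H4 summed to 2728 and 1944 CPM in D395A, against 1834 and 1703 CPM in WT (1.32-fold). H1 summed to 2398 and 1806 CPM in D395A, against 1760 and 1674 CPM in WT (1.22-fold). H2B summed to 1937 and 1550 CPM in D395A, against 1525 and 1378 CPM in WT (1.20-fold). Both D395A libraries were above both WT libraries in each class, but for H1 and H2B D395A replicate 2 was 1.05-fold and 1.07-fold the WT mean. By cluster the ratio of means was 1.31-fold for Hist1, 1.27-fold for Hist2, 1.66-fold for Hist3 and 1.63-fold for Hist4. No test was made of these sums.

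**Figure D2:**
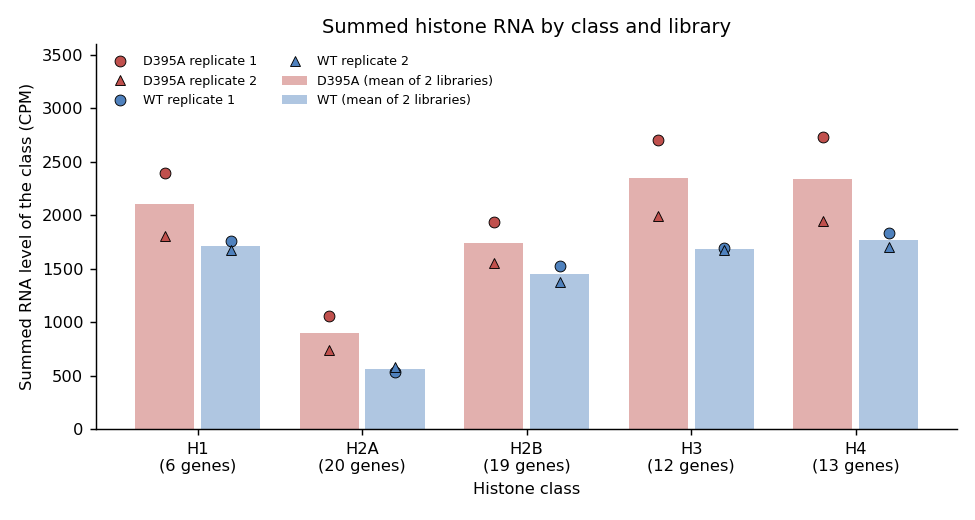
Summed CPM of each histone class (vertical axis) by class (horizontal axis), with bars for the mean of 2 libraries and points for each library. The D395A points lie above the WT points in all 5 classes, and D395A replicate 1 lies above D395A replicate 2 in each.

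Linker histone H1, which binds DNA at its entry and exit from the nucleosome, was measured in 6 genes, of which 3 were higher and 1 lower. Hist1h1c (H1.2) had 693 and 499.9 CPM in D395A, against 424 and 431 CPM in WT, with no overlap between genotypes (log2 fold change 0.48 ± 0.11 SE, adjusted p = 0.00143, edgeR). Hist1h1d (H1.3) and Hist1h1e (H1.4) were higher to a like extent, with log2 fold changes of 0.51 ± 0.10 and 0.47 ± 0.10 (adjusted p = 0.000524 and 0.000491, edgeR), though Hist1h1e shares 25.7% of its exonic bases with other genes on its strand, among them Hist1h2be. Hist1h1a (H1.1), the highest of the class per length at 562 CPM per kb in D395A and 556 in WT, was not called, with 467 and 366 CPM in D395A and 423 and 401 CPM in WT. Hist1h1b (H1.5) was called lower, with 243 and 182 CPM in D395A, against 268 and 237 CPM in WT (log2 fold change -0.25 ± 0.10, adjusted p = 0.0418, edgeR). Its genotypes overlapped, since D395A replicate 1 lay above WT replicate 2, and the call was lost in 6 alternatives, among them without WT replicate 1 (adjusted p = 0.30) and without D395A replicate 2 (adjusted p = 0.366). The testis H1t gene Hist1h1t was low in every library, at 2.05 and 1.54 CPM in D395A and 2.62 and 2.58 CPM in WT, and was not called (adjusted p = 0.0971, edgeR).

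Among the classes, H2A had the largest median shift. Of 19 tested, 13 were higher (68.4%) and 1 lower (5.26%), beside 36.8% and 34.3% of all genes tested. Their median log2 fold change was 0.55. Every H2A gene was overlapped by an exon on the opposite strand, and the counts of those partners, given after the divergent pairs, were also higher in D395A. Hist1h2ao had 31.0 and 20.6 CPM in D395A, against 8.59 and 12.9 CPM in WT (log2 fold change 1.21 ± 0.19, adjusted p = 4.001e-05, edgeR). Hist1h2ab had 155 and 105 CPM in D395A, against 55.7 and 69.0 CPM in WT (1.04 ± 0.14, adjusted p = 9.473e-06). Hist1h2ae had 161 and 112 CPM in D395A, against 57.4 and 78.0 CPM in WT (0.99 ± 0.14, adjusted p = 2.278e-05). In these 3 genes both D395A libraries lay above both WT libraries. Hist1h2ak, the highest of the class at 553 CPM per kb in D395A and 372 in WT, had 245 and 189 CPM in D395A, against 150.0 and 142 CPM in WT (0.57 ± 0.09, adjusted p = 7.755e-05). Hist1h2al, a transcribed pseudogene far from the rest of Hist1, had 87.6 and 69.4 CPM in D395A, against 58.0 and 53.8 CPM in WT (0.49 ± 0.09, adjusted p = 0.000331). Hist1h2aj had 687 and 301 counts in D395A, against 44 and 481 in WT, so the WT libraries differed more than the genotypes and it was not called (log2 fold change 1.08 ± 0.53, adjusted p = 0.0849). Hist1h2aj was named after its values were seen.

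Of 19 H2B genes, 7 were higher (36.8%) and 2 lower (10.5%), and their median log2 fold change was 0.25. Over all genes tested, 36.8% were higher as well, and 34.3% lower. Hist1h2bg, with 303 and 233 CPM in D395A and 206 and 184 CPM in WT, was higher by 0.46 ± 0.10 on the log2 scale (adjusted p = 0.00082, edgeR). Hist1h2bl, the highest per length at 444 CPM per kb in D395A and 408 in WT, was not called (0.12 ± 0.09, adjusted p = 0.255), nor was Hist1h2bb (0.11 ± 0.09, adjusted p = 0.308). Hist3h2ba had 16.05 and 11.96 CPM in D395A, against 8.22 and 7.62 CPM in WT (0.81 ± 0.15, adjusted p = 0.000273). Hist1h2bq, with several exonic blocks, had 149 and 115 CPM in D395A, against 72.9 and 79.2 CPM in WT (0.79 ± 0.10, adjusted p = 4.185e-06). Hist1h2bh went the other way, with 83.4 and 69.7 CPM in D395A, against 106 and 97.8 CPM in WT and no overlap (-0.42 ± 0.08, adjusted p = 0.000347).

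H3 and H4 had no member called lower. Of 11 H3 genes tested 8 were higher (72.7%, median log2 fold change 0.44), and of 13 H4 genes 10 were higher (76.9%, median 0.45). Over all genes tested, 36.8% were higher and 34.3% lower. The 3 highest H3 genes per length all rose. Hist1h3i had 385 and 272 CPM in D395A, against 211 and 220.3 CPM in WT (0.60 ± 0.11, adjusted p = 0.000263, edgeR). Hist1h3c had 552 and 394.5 CPM in D395A, against 285 and 301 CPM in WT (0.69 ± 0.11, adjusted p = 7.857e-05). Hist1h3e had 584 and 437 CPM in D395A, against 387 and 365 CPM in WT (0.44 ± 0.10, adjusted p = 0.00167). In all 3 the D395A libraries lay above the WT libraries. Hist2h3c2, in the Hist2 cluster, had 103 and 82.8 CPM in D395A, against 53.9 and 53.2 CPM in WT (0.79 ± 0.09, adjusted p = 1.963e-06). Among H4 genes, Hist1h4k had 333 and 228 CPM in D395A, against 188 and 197 CPM in WT (0.54 ± 0.12, adjusted p = 0.00109), a call lost with DESeq2 (0.56, adjusted p = 0.0533). Hist1h4f was not called (0.29 ± 0.13, adjusted p = 0.0566), and Hist1h4d was called only just (0.26 ± 0.11, adjusted p = 0.0405), a call lost without any of WT replicate 1, WT replicate 2 or D395A replicate 1 (adjusted p = 0.0882, 0.188 and 0.252).

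**Figure D3:**
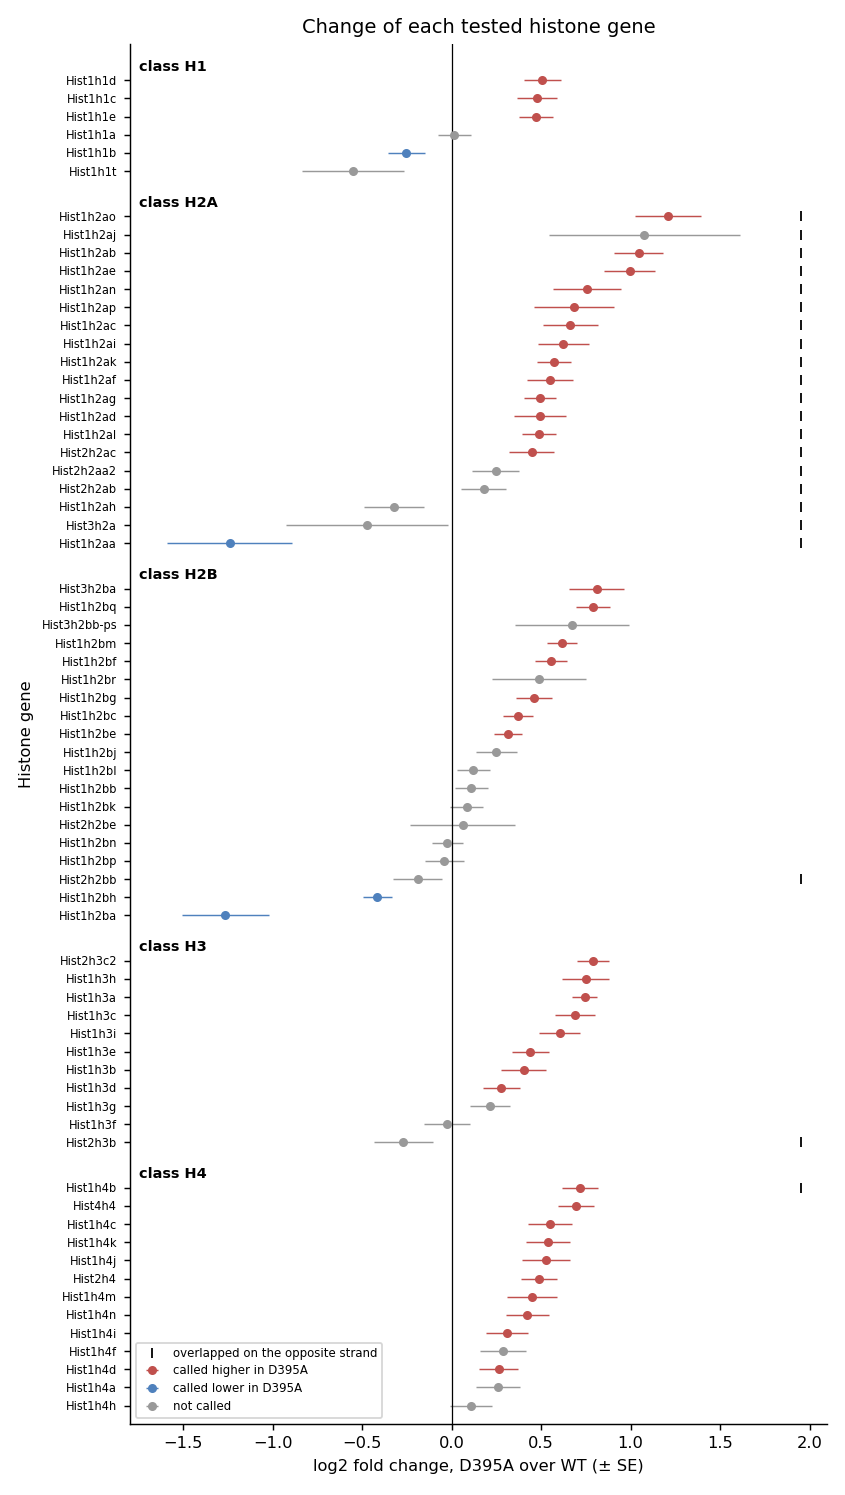
Log2 fold change of D395A over WT (horizontal axis, bars are ± SE) for the 68 tested histone genes, grouped by class. Ticks at the right mark genes overlapped by an exon on the opposite strand, which include all 19 tested H2A genes, and the 4 genes called lower stand at or next to the bottom of their classes.

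The genes that fell most form 1 divergent pair at the end of the Hist1 cluster. Hist1h2ba and Hist1h2aa encode the testis histones TH2B and TH2A, which are also stored in the egg. Hist1h2ba had 2.36 and 1.86 CPM in D395A, against 5.53 and 4.56 CPM in WT (log2 fold change -1.27 ± 0.24, adjusted p = 0.000284, edgeR). Hist1h2aa had 1.83 and 0.797 CPM in D395A, against 2.84 and 3.06 CPM in WT (-1.24 ± 0.35, adjusted p = 0.0053). Neither gene's genotypes overlapped. The counts behind Hist1h2aa were small, 24 and 15 in D395A against 38 and 57 in WT, and its call was lost without D395A replicate 2 (log2 fold change -0.69, adjusted p = 0.0767). The calls of Hist1h2ba and Hist1h2bh held in every alternative.

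In 14 divergent H2A and H2B pairs, with 172 to 305 bases between their annotated starts, the H2A gene had the larger log2 fold change in 11. The median of H2A minus H2B was 0.34, ranging from -1.14 (Hist3h2a with Hist3h2bb-ps) to 0.80 (Hist1h2an with Hist1h2bp). Hist1h2ak and Hist1h2bn were one such pair: the H2A gene had 3.20 and 3.04 counts per count of its H2B partner in D395A, against 2.09 and 2.05 in WT.

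All 20 H2A genes were overlapped by an exon of a gene on the opposite strand, as were Hist2h2bb, Hist2h3b and Hist1h4b. The sources used here do not give the strand setting of the counting. Some partners lie wholly within their H2A gene and still had counts of their own. Gm44454, within Hist1h2ak, had 368 and 303 counts in D395A, against 7 and 5 in WT, where Hist1h2ak had 2008 and 2649. Whether every read of a histone gene and its partner was told apart was not tested. The 17 H2A partners of 129 to 144 exonic bases that had any count summed to 1463 and 1050 counts in D395A, against 12 and 11 counts in WT. Scaled to library size, these sums were 111 and 55.8 CPM in D395A, against 0.90 and 0.59 CPM in WT. A further 2 such partners, opposite Hist2h2aa1 and Hist2h2aa2, had no count. Of the 17, 12 had no count in WT replicate 1 and 12, not all the same ones, had none in WT replicate 2. The 15 that were tested passed the count filter through their D395A counts, so their calls are not given as a result. The H2A genes opposite them summed to 13217 and 13345 counts in D395A, against 6645 and 10220 in WT, as raw counts from libraries of unequal depth. Per exonic length, the partner had a median of 39.3% and 31.3% of its H2A gene's count in the D395A libraries and 0 in both WT libraries. The part of these counts in the H2A result was not tested.

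Longer partners also had more counts in D395A, given here as raw counts from libraries of unequal depth. Gm20628 covers all of Hist2h3b and Hist2h2bb and had 1597 and 1274 counts in D395A, against 34 and 18 in WT. Under it, Hist2h3b had 564 and 480 counts in D395A, against 598 and 686 in WT, and was not called (log2 fold change -0.27, adjusted p = 0.157, edgeR), but was called lower without WT replicate 2 (-0.42, adjusted p = 0.00409) or D395A replicate 1 (-0.63, adjusted p = 2.374e-11). Hist2h2bb, with 803 and 758 counts in D395A and 826 and 989 in WT, was not called either (-0.19, adjusted p = 0.226), but was called lower without WT replicate 2 (-0.31, adjusted p = 0.0215) or D395A replicate 1 (-0.47, adjusted p = 4.975e-08), and it also shares 59.3% of its exonic bases with Gm42743 on its own strand. 4930558J22Rik, which covers 56.2% of Hist1h4b, had 574 and 455 counts in D395A, against 1 and 2 in WT. Hist1h4b itself had 1818 and 2003 counts in D395A, against 927 and 1465 in WT, and was called higher, by the most of any H4 gene (log2 fold change 0.72 ± 0.10, adjusted p = 1.74e-05, edgeR). The part of partner counts in these values was not tested. Gm20632, which covers all of Hist2h2aa2, had 46 and 48 counts in D395A, against 13 and 15 in WT. Gm20633, opposite the empty Hist2h2aa1, had 166 and 141 counts in D395A, against 30 and 36 in WT.

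Of the 46 tested members with no overlap on the opposite strand, 27 were called higher (58.7%) and 3 lower (6.52%). Their median log2 fold change was 0.41. Of the 22 overlapped members, 14 were higher (63.6%) and 1 lower (4.55%), with a median of 0.52. Over all 12377 tested genes without such overlap, 32.3% were higher and 37.1% lower, with a median of -0.07. The shares over all genes tested were 36.8% and 34.3%. In the whole table, genes without such overlap were thus less often called higher than all genes tested. Among histone genes the 2 shares lay close together. Of the 22 overlapped members tested, 19 were H2A genes, so overlap and class cannot be told apart there. Neighbouring genes of other kinds were few. Within the main Hist1 span, without the distant Hist1h2al, 9 non-histone genes free of such overlap were tested. Of these, 2 were higher and 2 lower (22.2% each), with a median of 0.10.

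**Figure D4:**
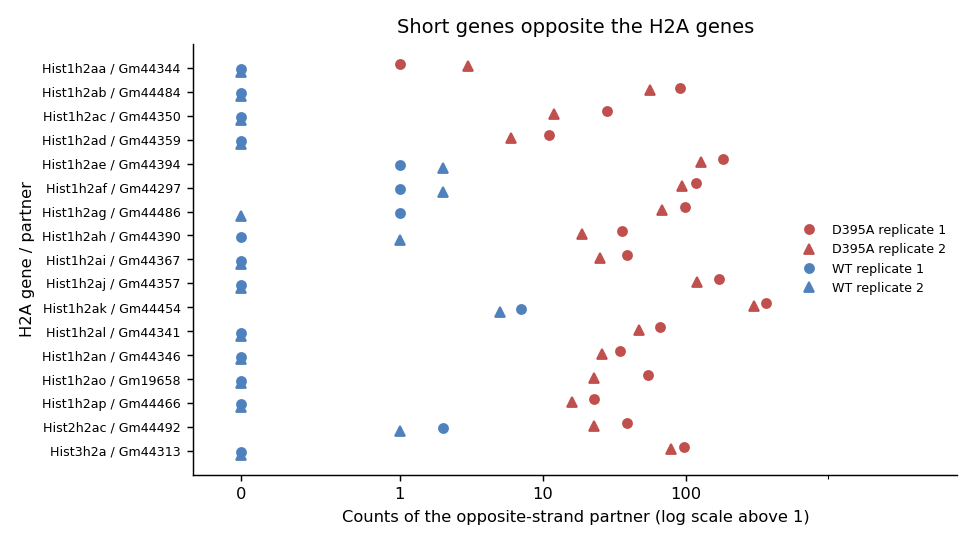
Counts of the 17 short genes opposite H2A genes (horizontal axis, linear to 1 and logarithmic above it) in each library. D395A libraries range from 1 to 368 counts and WT libraries from 0 to 7. Most of these genes had no count in WT and are shown only through their D395A counts, so their separation by genotype is not given as a result.

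The promoters carry motifs known for these genes. The 4 windows below are shown because they set a gene called lower beside one called higher: the testis H2B gene Hist1h2ba beside the somatic H2A gene Hist1h2ab, and the linker gene Hist1h1b beside Hist1h1c. They run from 250 bases before to 50 after the RefSeq start (GRCm38.p6), 5′ to 3′ on the gene's strand, with matches on either strand in capitals. The motifs were the TATA box, spelled TATAAA, then the CCAAT box, named by its letters, then the octamer bound by OCT transcription factors, spelled ATTTGCAT, and last the H1 box of linker histone genes, spelled AAACACA. No matches overlap in these windows.
Hist1h2ba, chr13:23934107-23934406, minus strand: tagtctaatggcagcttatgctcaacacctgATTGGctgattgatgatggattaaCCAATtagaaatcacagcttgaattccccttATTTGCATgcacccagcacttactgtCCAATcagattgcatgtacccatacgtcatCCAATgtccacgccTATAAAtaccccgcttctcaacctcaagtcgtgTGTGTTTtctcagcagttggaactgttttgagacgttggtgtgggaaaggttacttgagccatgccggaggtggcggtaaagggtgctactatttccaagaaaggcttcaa
Hist1h2ab, chr13:23750838-23751137, plus strand: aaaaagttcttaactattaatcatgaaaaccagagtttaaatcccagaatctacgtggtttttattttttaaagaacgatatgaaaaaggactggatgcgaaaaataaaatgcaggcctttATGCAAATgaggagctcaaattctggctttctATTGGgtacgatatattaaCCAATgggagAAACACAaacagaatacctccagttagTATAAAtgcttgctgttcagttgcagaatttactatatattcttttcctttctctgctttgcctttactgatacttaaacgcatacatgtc
Hist1h1b, chr13:21780576-21780875, minus strand: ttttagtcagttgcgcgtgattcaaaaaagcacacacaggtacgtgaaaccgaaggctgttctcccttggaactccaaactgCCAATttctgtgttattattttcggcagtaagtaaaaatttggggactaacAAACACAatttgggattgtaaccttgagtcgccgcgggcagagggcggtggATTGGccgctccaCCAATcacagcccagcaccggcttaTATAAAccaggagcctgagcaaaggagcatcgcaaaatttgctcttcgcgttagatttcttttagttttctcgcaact
Hist1h1c, chr13:23738557-23738856, plus strand: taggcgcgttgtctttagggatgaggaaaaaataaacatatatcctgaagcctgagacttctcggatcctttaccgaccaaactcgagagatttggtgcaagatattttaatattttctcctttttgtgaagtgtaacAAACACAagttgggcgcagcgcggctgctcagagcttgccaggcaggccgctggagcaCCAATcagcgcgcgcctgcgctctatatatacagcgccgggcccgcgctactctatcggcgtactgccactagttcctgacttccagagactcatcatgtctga

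Hist1h2ba and Hist1h2ab hold all 4 motifs, Hist1h1b lacks the octamer, and Hist1h1c lacks the octamer and the exact letters searched for the TATA box. Among the 62 members with a promoter in the RefSeq table, the CCAAT box was in 85.5% and the TATA box in 56.5%, against 37.9% and 14.2% of all 27025 promoters. The octamer was in 21.0% of members against 1.75% of all, in 7 of 18 H2A and 6 of 16 H2B promoters and in no H1, H3 or H4 promoter. Windows of divergent pairs can overlap, as do those of Hist1h2ag and Hist1h2bj, and matches on either strand count. A site can thus be counted for both genes of a pair. The H1 box was in 5 of 6 H1 promoters, against 7.14% of all promoters. The CCAAT box was in every H1, H2A, H2B and H3 promoter and in 3 of 12 H4 promoters. These matches are descriptions of letters in the window and were not tested against the changes.

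Peaks of m6A on these genes were more frequent in the D395A list. Exonic peaks were listed for 24 histone genes in the D395A list (22 of the 68 tested), where 37.2% of all tested genes and 18.9% of those of at most 1000 exonic bases had one. In the WT list 4 histone genes had one, where 61.0% of all tested genes and 24.2% of the short ones did. The D395A list stands for 1 immunoprecipitate and 1 input library and holds 38823 peaks at a p threshold of 0.05. The WT list stands for 2 of each and holds 48445 peaks at a q threshold of 0.05. With q below 0.05 in both, 22 and 4 histone genes had a peak in the D395A and WT lists, and with the same number of top-ranked peaks 24 and 3 did. With 1 list per genotype, no test of this difference is possible, and the number of libraries behind each list and the genotype cannot be told apart.

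By class, the D395A peaks fell on 11 H2A, 7 H2B, 2 H1, 2 H3 and 2 H4 genes. The authors' fold enrichment at these 23 peaks ran from 2.72 to 9.005, with a median of 4.69, beside 2.66 over the whole D395A list. The highest were at Hist1h2ab (9.005), Hist1h2af (8.62), Hist1h2bg (8.17), Hist2h2bb (6.33), Hist1h2bm (5.76) and Hist1h2bb (5.66). The Hist1h2ab peak (chr13:23750949-23751483) reaches 177 bases before the annotated start, into the promoter window printed for this gene, and that at Hist1h1c starts 121 bases before its start. One peak, chr13:22042534-22043476, covers the shared start region of Hist1h2ag and Hist1h2bj. Hist2h2aa1 and Hist2h3c1, with no RNA-seq count in any library, each have a D395A peak. Of the 22 tested members with a D395A peak, 15 were called higher (68.2%) and 0 lower. Of the 46 without one, 26 were higher (56.5%) and 4 lower (8.70%), beside 36.8% and 34.3% of all genes tested. The same split over all genes is not given here, and a link between peaks and RNA level was not tested.

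The 5 WT peaks lay on Hist1h1c (fold enrichment 4.09), Hist2h2be (7.81 and 4.91), Hist2h3c2 (4.04) and Hist2h2aa2 (6.17), with a median of 4.91 beside 6.31 over the whole WT list. Only Hist1h1c and Hist2h2aa2 had a peak in both lists. In Hist1h1c the D395A summit lay 409 bases after the annotated start and the WT summit 1166 bases after it. In Hist2h2aa2 they lay 176 and 623 bases after it, the WT one past the annotated end. Hist2h2be, an H2B gene whose annotation reaches 2620 bases and whose RNA was near 2 CPM in all libraries (2.13 and 1.81 CPM in D395A, 1.79 and 1.93 CPM in WT), had 2 WT peaks and no D395A peak.

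Along single-block genes, 21 of 23 D395A peak and gene pairs had their summit in the first 50% of the annotated gene, beside 52.3% of 539 pairs of other tested genes. The median position was 28.8% for histone genes, against 41.4% for the others. For the WT list it was 1 of 5 histone pairs, beside 43.6% of 819 other pairs, with medians of 74.7% and 48.7%. Peaks carry no strand, and overlapping genes on the opposite strand were not separated. These positions depend on annotated length, which ran from 312 bases (Hist1h4k) to 7425 (Hist1h1d) among all members. Length was not matched between histone and other genes.

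**Figure D5:**
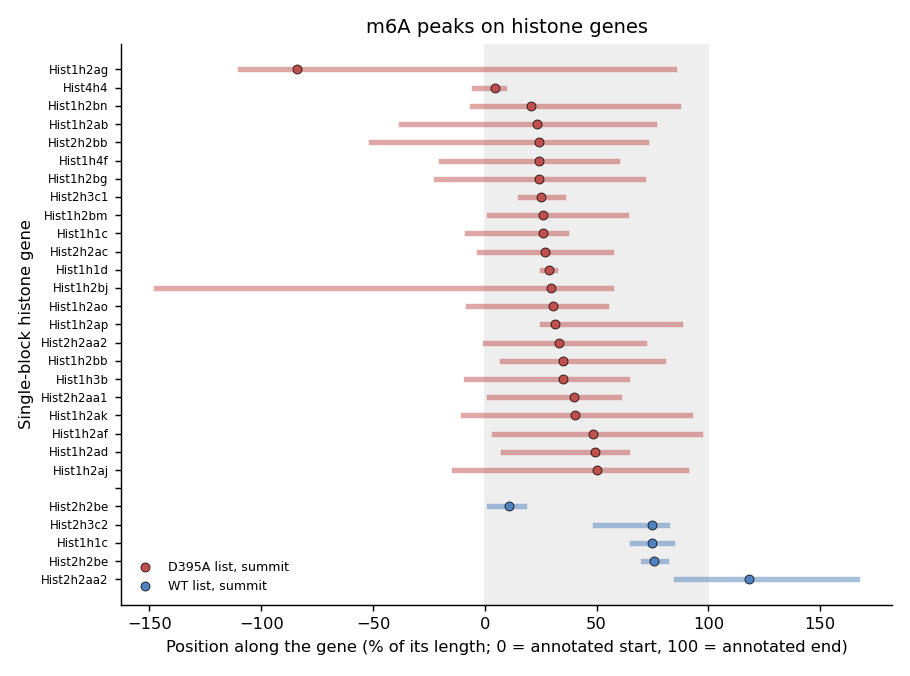
Extent (bar) and summit (point) of each m6A peak along single-block histone genes, in percent of the gene's length from its annotated start (horizontal axis), with the D395A list above the WT list. D395A summits gather between 4.44% and 50.3% except for Hist1h2ag at -83.9%, and WT summits between 74.7% and 118% except for a Hist2h2be peak at 10.95%.

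Genes that serve histone messages moved in both directions. Of 28 tested genes of histone message transcription, 3′ processing and decay, 8 were higher (28.6%) and 15 lower (53.6%), beside 36.8% and 34.3% of all genes tested, with a median log2 fold change of -0.17. Slbp, whose protein binds the stem-loop, had 84.8 and 82.8 CPM in D395A, against 93.0 and 97.0 CPM in WT (log2 fold change -0.18 ± 0.06, adjusted p = 0.0182, edgeR). Npat, the S phase activator of histone genes, had 118 and 128 CPM in D395A, against 141 and 148 CPM in WT (-0.23 ± 0.07, adjusted p = 0.00587). Both fell slightly with no overlap between genotypes. Lsm10, a U7 particle subunit, rose to 55.5 and 53.6 CPM in D395A, against 17.2 and 15.8 CPM in WT (1.73 ± 0.08, adjusted p = 1.811e-10). Exosc10, a nuclear exosome subunit, fell to 103 and 106 CPM in D395A, against 185 and 180.4 CPM in WT (-0.81 ± 0.06, adjusted p = 2.398e-08).

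Of 40 S phase and replication genes, 8 were higher (20.0%) and 24 lower (60.0%), with a median of -0.22. Pcna, the polymerase clamp, had 136 and 121 CPM in D395A, against 158 and 150.4 CPM in WT (-0.27 ± 0.07, adjusted p = 0.00292, edgeR). Of 24 histone chaperones and importers, 8 were higher (33.3%) and 11 lower (45.8%), beside 36.8% and 34.3% of all genes tested, with a median of -0.08. Nasp, which carries H1 and H3-H4, fell to 220.2 and 209 CPM in D395A, against 355 and 340 CPM in WT (-0.70 ± 0.07, adjusted p = 2.742e-07).

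Replication-independent variants, whose messages are mostly polyadenylated, had 3 of 12 tested genes higher (25.0%) and 2 lower (16.7%), with a median of -0.07. Over all genes tested, 36.8% were higher and 34.3% lower. H1f0, the H1.0 gene of slowly cycling cells, rose to 204 and 190.3 CPM in D395A, against 41.9 and 41.9 CPM in WT (2.23 ± 0.07, adjusted p = 1.8e-12, edgeR). H1fx rose to 109.5 and 81.6 CPM in D395A, against 20.7 and 18.7 CPM in WT (2.28 ± 0.12, adjusted p = 5.903e-10). Both changes were larger than that of any replication-dependent H1 gene. Exons on the opposite strand overlapped 17.5% of the exonic bases of H1fx and 0% of those of H1f0. H2afz (H2A.Z) rose to 432 and 364 CPM in D395A, against 296 and 292 CPM in WT (0.43 ± 0.08, adjusted p = 0.000201), while H2afy (macroH2A1) fell by 0.19 on the log2 scale (adjusted p = 0.0187).

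Other RNAs without a poly(A) tail, taken as a sign of how RNA was selected, were mostly lower or not called. Of 25 tested, 1 was higher (4.0%) and 11 lower (44.0%), beside 36.8% and 34.3% of all genes tested. Their median log2 fold change was -0.35. Replicate 1 was the higher one for 24 of 25 in D395A and 21 of 25 in WT, with median log2 ratios of 0.46 and 0.40, so the replicate difference of these RNAs was present in both genotypes. Rn7sk, the one called higher, had 627 and 378 CPM in D395A, against 410 and 350.4 CPM in WT (0.40 ± 0.16, adjusted p = 0.0352, edgeR).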

How the data were processed

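RNA-seq libraries were made with a directional kit after ribosomal RNA depletion, and m6A immunoprecipitation used fragmented chromatin RNA, per the labels' protocols. The deposited table holds raw read counts per gene with exon coordinates. The submitters' processing notes name Trimmomatic 0.33.0, HISAT2 2.1.0, MACS2 2.1.1, featureCounts 1.6.3 and edgeR 3.22.5 and build mm10, with no role given. One count column, 1 character off D395A, was taken as D395A replicate 1. The peak lists are deposited in narrowPeak layout, with the authors' score, fold enrichment, -log10 p-value and -log10 q-value per peak.

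Counts were filtered with filterByExpr (17778 of 52459 genes kept), scaled with TMM and compared by the edgeR 4.0.16 quasi-likelihood test (R 4.3.3), D395A over WT, with Benjamini-Hochberg adjustment over all genes tested. CPM uses scaled library sizes (TMM factors 1.03 and 1.04 in D395A, 0.961 and 0.97 in WT). Totals per library give the precision. On counts simulated for this comparison (17778 genes), the test called 76% of 50 genes with a 1.5-fold change, 90% at 2-fold, 94% at 4-fold and all at 8-fold, and 3.23% of its calls were false. Overlap on the opposite strand used exon coordinates of the count table. Peaks were given to genes sharing 1 base or more with an exon. All 70 members matched a RefSeq gene, 62 with a promoter.

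Named members were the 3 highest per class by CPM per kb, the 6 called members with the largest change each way, up to 6 per list with the highest peak enrichment, and the 4 most overlapped pairs. In other lists, up to 4 called genes with the smallest adjusted p, and Slbp, Npat and Pcna, could be named, of which a part is given. Other members and partners were named after their values were seen. The members, lists and tests were chosen with earlier results of these data known. Alternatives were DESeq2 1.42.0, upper quartile and no scaling, other count filters, a replicate block, each library left out, no overlapped genes, single-block members, and other peak thresholds and assignments. The other samples of the series were not analysed here.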

Additional observations from a re-analysis of the deposited data

How the results depend on the processing

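The members' median log2 fold change stayed positive in all alternatives, from 0.24 to 0.64. With all libraries and overlapped genes kept, 33 members were called higher with DESeq2, where 31.6% of all genes tested were. In the other such alternatives 41 or 48 were, beside 24.6% to 41.1% of all genes tested. Of the named members, Hist1h1b, Hist1h2af, Hist1h4d and Hist1h4k lost their call with DESeq2. Members called lower numbered 4, 7 with a replicate block and between 2 and 9 with a library left out. Those at least 2-fold higher numbered between 0 and 8, and those at least 2-fold lower between 1 and 2, with a library left out. With a library left out, the log2 ratio of summed counts ranged from 0.16 to 0.59 over all members (0.39 with all libraries), from 0.073 to 0.482 for H1, from 0.42 to 0.92 for H2A, from 0.094 to 0.416 for H2B, from 0.25 to 0.68 for H3 and from 0.14 to 0.63 for H4. Only 1 member had a WT peak in the top 50% of that list by p, against 4. Small changes reversed. Leaving out a library in turn, Hist1h1a ranged from -0.14 (without D395A replicate 1) to 0.183, Hist1h2bb from -0.017 (without WT replicate 2) to 0.25, Hist1h2bl from -0.015 (without WT replicate 2) to 0.259, Hist2h2be from -0.018 (without D395A replicate 1) to 0.187, Hist2h2bb from -0.471 to 0.098 (without D395A replicate 2) and Hist2h3b from -0.631 to 0.087 (without D395A replicate 2). The cause was not tested. Without scaling the median of all genes moved to 0.10, the members' median to 0.56, and 48 members were higher, where 41.1% of all genes tested were. The labels do not say that a replicate number pairs libraries. Deviations of same-numbered libraries correlated by 0.138 over 10120 genes. With the replicate block 48 members were higher, where 37.4% of all genes tested were, and 7 were lower. Among the lower were Hist2h3b (-0.29, adjusted p = 0.000649, edgeR) and Hist2h2bb (-0.21, adjusted p = 0.00842). With a library left out, the lone library is taken to vary as the other group does. At the depth used, 76% of simulated 1.5-fold changes were called, so members not called are not shown to be equal.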
